A study of Mus musculus with 8 samples.

Results

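Brown fat and adipocyte marker genes were followed across the aorta of newborn mice. The 10 genes are Ucp1, Cox8b, Pck1, Fabp4, Adipoq, Adig, Cidea, Plin1, Pparg and Lipe, a list put together with earlier results of these data known. Each was taken as the row of the deposited table that carries its symbol and no other, and all 10 were found, with 1 row each, among 22180 genes with a single symbol in a table of 41345 rows. RNA came from wild-type C57BL/6 pups and from C57BL/6 pups that lack fibulin-4, a secreted protein needed for elastic fibre assembly, all at postnatal day 0. Per the labels, the ascending segment began at the aortic valve and ended at the ductus arteriosus, and the descending one lay between the vena cava and the diaphragm. Each array measured a pool of 8 pups' tissue, and 2 arrays were made for each of the 4 groups of genotype and segment, which gave 8 arrays. No treatment is named, the knockout is described only as lacking the gene, and the sources used here give neither sex nor litter of the pooled pups. Whether pools of the 2 segments came from the same pups is not stated either, so p-values measure the spread between the arrays that the labels call biological replicates.

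Adipocytes store triglyceride in lipid droplets and release it as fatty acids on demand. Brown adipocytes burn those fatty acids in mitochondria rich in uncoupling protein 1, which lets protons leak back across the inner membrane and turns the gradient into heat. In mice the thoracic aorta is wrapped in perivascular fat that resembles brown fat, and brown fat is present and active around birth. RNA of a dissected aorta can therefore hold adipocyte transcripts beside those of the vessel wall. In bulk tissue of this kind, fewer adipocytes and less of a transcript per adipocyte cannot be told apart.

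The start regions of Ucp1, Cox8b and Adig are shown because these 3 genes had the largest descending differences between genotypes. The sequences are RefSeq's for mouse build GRCm38.p6 and run 5′ to 3′ on the strand of the gene, from 250 bases before the annotated start to 50 bases from it onward. Ucp1 lies on the plus strand at chr8:83290098-83290397, Cox8b on the minus strand at chr7:140900397-140900696 and Adig on the plus strand at chr2:158502362-158502661. Capitals mark AGGTCA, the half-site of nuclear receptors such as PPARγ, or the core promoter element TATAAA. Relative to the annotated start, the capitals begin at -14 in Ucp1, at -154 in Adig and at 4 in Cox8b, where they thus lie past the start.
Ucp1: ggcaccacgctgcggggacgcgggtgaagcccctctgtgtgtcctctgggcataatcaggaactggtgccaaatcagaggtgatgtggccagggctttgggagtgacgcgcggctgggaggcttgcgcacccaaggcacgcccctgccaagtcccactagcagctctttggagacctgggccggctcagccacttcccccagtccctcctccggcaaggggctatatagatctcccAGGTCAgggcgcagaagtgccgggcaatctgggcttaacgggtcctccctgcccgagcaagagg
Cox8b: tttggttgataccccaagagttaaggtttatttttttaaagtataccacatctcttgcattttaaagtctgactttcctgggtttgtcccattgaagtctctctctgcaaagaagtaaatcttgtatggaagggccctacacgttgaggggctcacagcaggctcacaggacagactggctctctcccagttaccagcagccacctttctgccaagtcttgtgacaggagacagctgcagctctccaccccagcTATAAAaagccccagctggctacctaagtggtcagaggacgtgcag
Adig: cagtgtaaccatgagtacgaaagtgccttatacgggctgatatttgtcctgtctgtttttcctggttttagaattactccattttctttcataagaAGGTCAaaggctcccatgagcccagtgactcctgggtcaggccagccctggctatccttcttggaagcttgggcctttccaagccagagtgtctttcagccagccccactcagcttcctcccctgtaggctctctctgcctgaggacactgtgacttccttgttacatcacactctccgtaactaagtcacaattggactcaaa

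RefSeq start regions were matched by symbol for 8 of the 10 genes, with 11 start regions in all. No match was found for Fabp4. Cidea was not searched because chromosome 18, where it lies, was left out for the 10 genes. The half-site AGGTCA and the core promoter element were looked for on both strands, as were TTGCNNAA, a form of C/EBP site, and the cyclic AMP response element TGACGTCA. The direct repeat of 2 half-sites with any 1 base between them was also searched, and it overlaps the half-site by construction. AGGTCA was found in 4 of the 11 start regions, which belong to Ucp1, Adig and Pparg, and in 16.3% of 32817 start regions of all genes. TTGCNNAA was found in 2 of the 11, of Plin1 and Pparg, and in 10.8% of all start regions. TATAAA was found in 2 of the 11, of Cox8b and Pparg, and in 13.6% of all. The direct repeat and TGACGTCA were found in 0 of the 11, and in 0.0396% and 1.79% of all start regions. These matches describe the letters of a short window and say nothing about whether a factor binds.

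The deposited values are log2 signals made by the authors with RMA, and they carry no call of detection. The median over all rows lay between 4.68 and 4.89 on the 8 arrays. The second array of both wild-type groups had a narrower spread of values than the rest, with an interquartile range over genes of 1.80 (ascending) and 1.74 (descending) against 2.14 to 2.28 on the other 6. Fibulin-4 itself was not analysed here, and genotype therefore rests on the labels alone. Of the 8 smooth muscle markers, which define the aortic media, Acta2 lay between 12.1 and 12.4 and Myh11 between 8.70 and 9.22 over the 8 arrays, while Mylk (6.13 to 6.86) and Des (5.93 to 7.07) were dimmer. Differences below are on the log2 scale with their standard error, from limma fitted to all 22180 genes and all 8 arrays.

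Ucp1, Cox8b and Cidea had their highest means in the wild-type descending aorta, followed by wild-type ascending, knockout descending and knockout ascending aorta. Ucp1, the uncoupling protein itself, had log2 values of 8.80 and 7.04 there, 5.37 and 4.75 in wild-type ascending, 4.78 and 4.36 in knockout descending and 4.22 and 4.42 in knockout ascending aorta. Both wild-type descending arrays lay above all other 6, and the remaining 3 groups overlapped with their neighbours in the order of the means. The knockout minus wild-type difference in the descending aorta was -3.35 (SE 0.50, 95% interval -4.47 to -2.24), a 10.2-fold lower signal and the most negative of all 22180 genes in this fit. Its limma adjusted p was 0.244, so it did not pass the threshold of 0.05. The 2 wild-type descending arrays themselves differed by 1.75, and the difference was -4.23 with adjusted p = 0.0378 in limma without the second of them and -2.48 with adjusted p = 0.188 without the first.

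Cox8b encodes a subunit of cytochrome c oxidase, the last complex of the respiratory chain, in the form used by brown fat, heart and skeletal muscle. Its log2 values were 10.27 and 10.53 in wild-type descending, 8.995 and 7.31 in wild-type ascending, 7.94 and 8.16 in knockout descending and 7.26 and 6.20 in knockout ascending aorta. The wild-type descending pair stood above every other array, and the knockout ascending pair lay below both arrays of the knockout descending group. The genotype difference was -2.36 (SE 0.52) in the descending and -1.42 (SE 0.52) in the ascending aorta, with limma adjusted p of 0.487 and 0.485. The ascending difference was -0.58 without the first and -2.26 without the second wild-type ascending array, and -0.89 without the second knockout ascending array. Cidea, a lipid droplet protein abundant in brown adipocytes, had values of 7.31 and 6.24 in wild-type descending against 5.13 and 5.29 in knockout descending aorta. In the ascending aorta it had 6.03 and 5.32 in wild-type and 4.68 and 5.27 in knockout. Knockout arrays lay below wild-type arrays in both segments, by a mean of -1.57 (SE 0.40) and -0.70 (SE 0.40). The descending difference was -1.03 without the first wild-type descending array. The ascending one was -0.35 without the first and -1.05 without the second wild-type ascending array, and -0.40 without the first knockout ascending array.

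For the genes of lipid storage and release the wild-type descending aorta again had the highest mean, while the order of the other 3 groups varied between genes. Adig, which encodes adipogenin, a small membrane protein of adipocytes, had log2 values of 6.22 and 5.47 in wild-type descending aorta. On the other 6 arrays it lay between 3.43 and 4.36, and the 3 other groups overlapped. Its descending genotype difference was -2.14 (SE 0.37), or 4.41-fold, with a limma adjusted p of 0.245. Plin1, perilipin 1, coats the droplet and guards it from lipases. It had 6.64 and 5.70 in wild-type descending, 5.26 and 5.62 in knockout descending, 5.25 and 5.41 in wild-type ascending and 4.80 and 5.04 in knockout ascending aorta. The lower wild-type descending array was only just above the higher knockout one, and the difference was -0.73 (SE 0.33). It was -0.26 without the first wild-type descending array and -1.20 without the second.

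Lipe encodes hormone-sensitive lipase, which cuts stored lipid. Its values were 6.45 and 5.78 in wild-type descending, 5.79 and 5.53 in knockout descending, 5.56 and 5.57 in wild-type ascending and 5.10 and 5.06 in knockout ascending aorta. The descending genotypes overlapped (-0.46, SE 0.28), and the ascending ones did not (-0.49, SE 0.28). The descending difference was -0.12 without the first and -0.79 without the second wild-type descending array.

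Pck1 encodes the cytosolic phosphoenolpyruvate carboxykinase, which in adipocytes makes the glycerol backbone of triglyceride and in liver and kidney makes glucose. It had 6.70 and 7.04 in wild-type descending aorta while the other 6 arrays held values between 4.81 and 5.62. The descending genotype difference was -1.50 (SE 0.32), or 2.84-fold (limma adjusted p = 0.487), while the ascending one was -0.17 (SE 0.32). Fabp4 encodes the fatty acid carrier of adipocytes, which capillary endothelium and macrophages also make. Its log2 values were 12.05 and 11.80 in wild-type descending, 11.36 and 11.41 in knockout descending, 10.71 and 10.86 in wild-type ascending and 10.52 and 10.79 in knockout ascending aorta. For this gene the segment set the order more than the genotype: both descending groups lay above both ascending groups, and the ascending genotypes overlapped. The genotype difference was -0.54 (SE 0.25) in the descending and -0.13 (SE 0.25) in the ascending aorta.

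Pparg encodes PPARγ, the nuclear receptor that drives fat cell formation, and Adipoq encodes adiponectin, a hormone secreted by fat cells. Pparg had log2 values of 7.09 and 5.54 in wild-type descending, 5.70 and 5.81 in knockout descending, 5.29 and 4.96 in wild-type ascending and 5.14 and 4.82 in knockout ascending aorta. The knockout descending arrays lay between the 2 wild-type descending arrays, so the difference of -0.56 (SE 0.44) rested on 1 array and was 0.22 without it. Adipoq had 7.83 and 7.10 in wild-type descending, 6.09 and 6.42 in knockout descending, 7.27 and 5.73 in wild-type ascending and 5.28 and 4.36 in knockout ascending aorta. It was lower in the knockout in both segments without overlap, by -1.21 (SE 0.50) in the descending and -1.68 (SE 0.50) in the ascending aorta, with limma adjusted p of 0.824 and 0.433. The ascending difference was -0.91 without the first wild-type ascending array and -2.45 without the second.

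**Figure D1:**
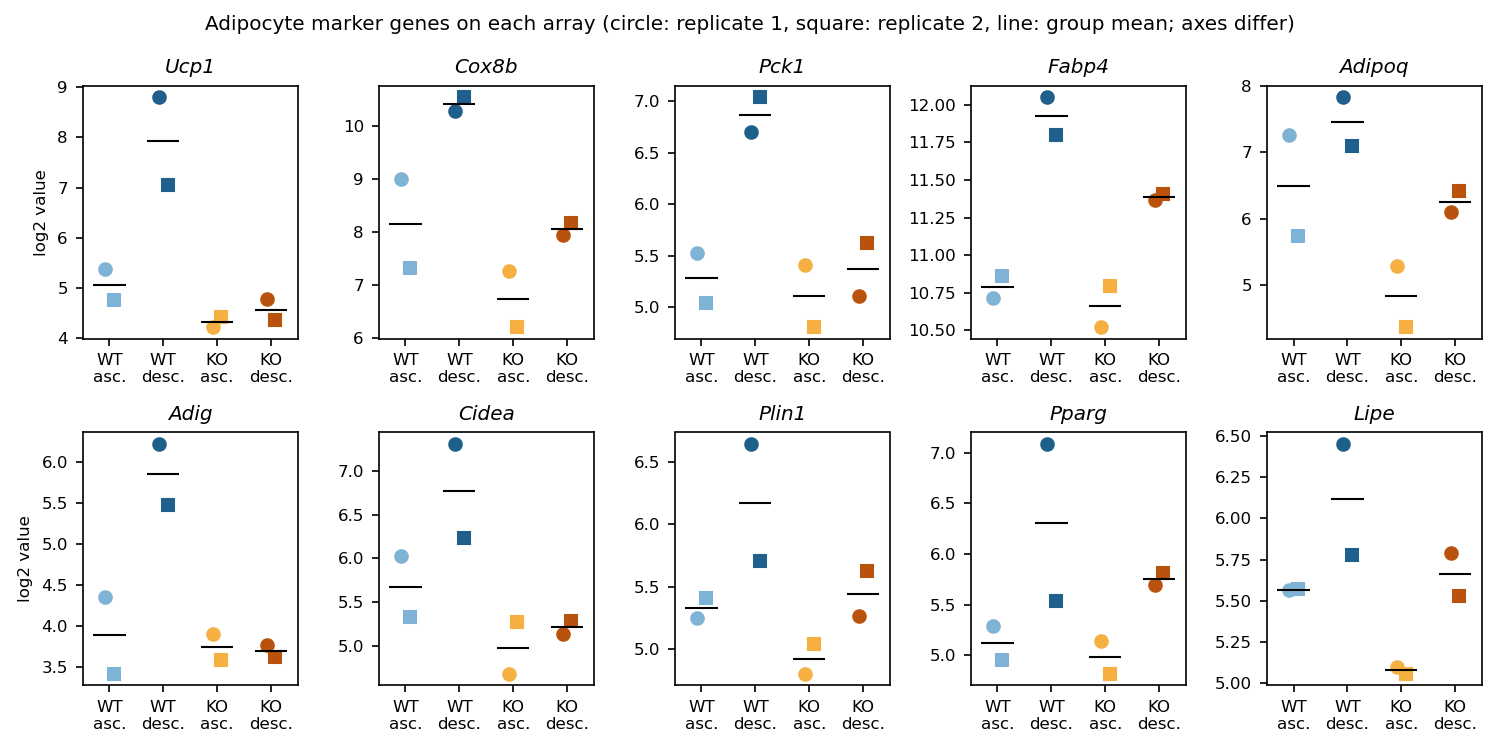
Log2 value of each of the 10 genes on the 8 arrays, by group on the x axis (WT wild-type, KO knockout, asc. ascending, desc. descending); circles are replicate 1, squares replicate 2 and lines group means, and each panel has its own y axis. Wild-type descending has the highest mean in all 10 panels, and in 7 of them both of its arrays lie above the other 6.

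The first comparison set knockout against wild-type in the descending aorta. All 10 were lower in the knockout, against 46.3% of all genes, with a median of -1.36 beside 0.03 for all genes and a range from -3.35 to -0.46. In 8 of 10 both knockout arrays lay below both wild-type arrays, as they did in 15.8% of all genes, the exceptions being Pparg and Lipe. An unadjusted limma p under 0.05 with a lower value was reached by 6 of 10 genes (Ucp1, Adig, Pck1, Cox8b, Cidea and Adipoq) and by 2.32% of all genes. After Benjamini-Hochberg adjustment over 22180 genes limma called 0 of the 10, and 0.00451% of all genes (1 gene). When the pair of narrow wild-type arrays was left out, which leaves 1 array in each wild-type group, the difference of Ucp1 was -4.23.

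In the ascending aorta the same 10 genes were again all lower in the knockout, against 50.7% of all genes, with a median of -0.45 beside -0.01 and a range from -1.68 to -0.13. The groups did not overlap in 6 of 10 (Ucp1, Cox8b, Adipoq, Cidea, Plin1 and Lipe) and, with the knockout lower, in 18.3% of all genes. Only Adipoq and Cox8b had an unadjusted limma p under 0.05, which 3.60% of all genes reached with a lower value. That count of 2 was 0 without the first wild-type ascending array, 0 without the second knockout ascending array, and 4 when the pair of narrow wild-type arrays was left out. No gene of the 22180 was called after adjustment by limma (0%). Averaged over both segments, 8 of 10 had an unadjusted limma p under 0.05 and a lower value, against 3.83% of all genes, and 0 of 10 were called, against 0.0721% (16 genes). Ucp1 came nearest at -2.05 (SE 0.35, limma adjusted p = 0.0989) and Cox8b followed at -1.89 (SE 0.37, adjusted p = 0.132). Ucp1 was called in that average without the second wild-type descending array (-2.49), and Cox8b without the second wild-type ascending array (-2.31).

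**Figure D2:**
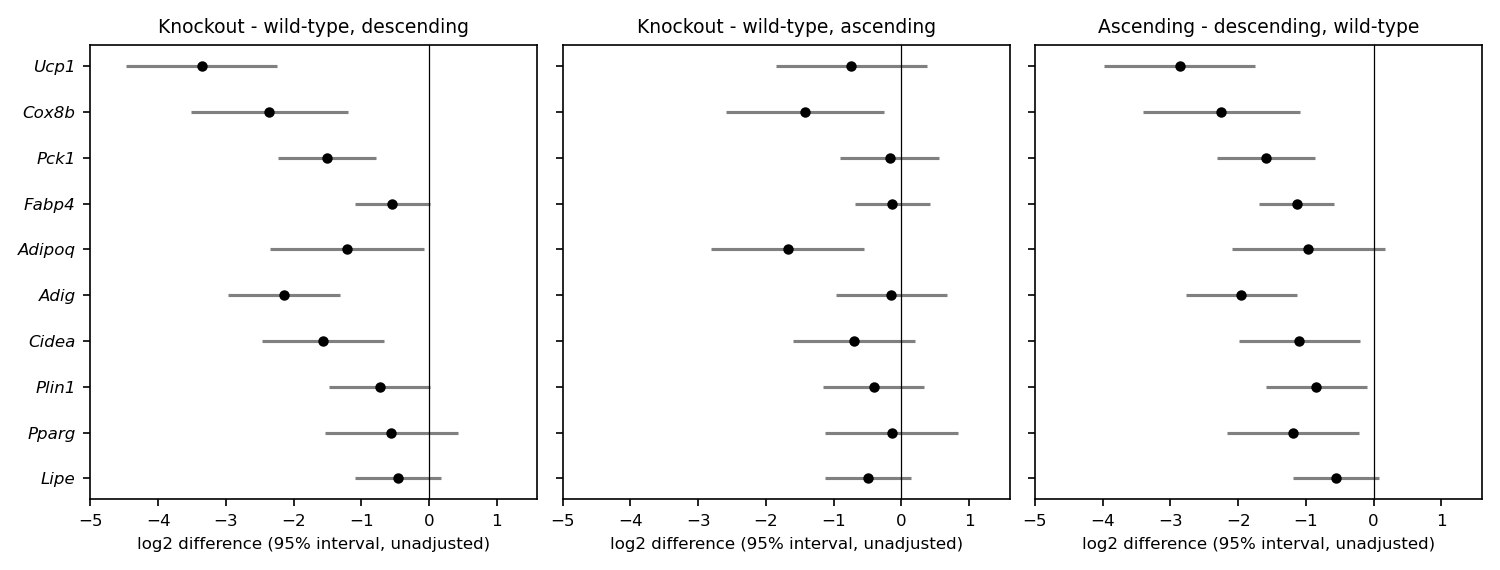
Log2 difference of each gene (x axis, with its unadjusted 95% interval from limma) for knockout minus wild-type in the descending and ascending aorta and for ascending minus descending in wild-type aorta. All points lie below 0, with Ucp1 at -3.35, -0.74 and -2.86, and the ascending genotype differences are the closest to 0 for most genes.

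Next, the segments were compared within a genotype. In wild-type aorta all 10 genes were lower in the ascending than in the descending segment (48.3% of all genes were), with a median of -1.16 beside 0.01. The groups did not overlap in 9 of 10, all but Adipoq, and with ascending lower in 14.1% of all genes. An unadjusted limma p under 0.05 was reached by 8 of 10, against 2.98% of all genes, and adjusted calls by 0 of 10, against 0.00902% (2 genes). Ucp1 stood at -2.86 (SE 0.50), Cox8b at -2.25 (SE 0.52), Adig at -1.95 (SE 0.37), Pck1 at -1.59 (SE 0.32) and Fabp4 at -1.14 (SE 0.25), with limma adjusted p between 0.255 and 0.434. The difference of Cox8b was -1.41 without the second wild-type ascending array. The count of 8 was 5 without the first wild-type descending array and 5 without the second wild-type ascending array.

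In knockout aorta the segment difference had a median of -0.55 beside -0.01 for all genes, with 9 of 10 genes lower in the ascending segment (51.7% of all genes) and Adig at 0.04. The groups did not overlap in 6 of 10, against 20.8% of all genes. Adipoq (-1.43, SE 0.50), Cox8b (-1.32, SE 0.52) and Fabp4 (-0.73, SE 0.25) had an unadjusted limma p under 0.05, against 2.04% of all genes, and none of the 22180 genes was called after adjustment (0%). Cox8b stood at -0.78 without the second knockout ascending array. Ucp1 differed by -0.25 (SE 0.50) between the knockout segments. Its means there were 4.32 (ascending) and 4.57 (descending), and those of Adig were 3.75 and 3.70. All lay below the medians over all genes on these arrays, which were 4.98 to 5.06. How far a low signal limits these differences was not tested. The count of 3 ranged from 0, without the second knockout descending array, to 5 without either wild-type descending array, and was 1 without the second knockout ascending or the first knockout descending array.

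Whether the genotype difference itself depended on the segment was tested with the interaction term. The ascending minus descending difference of the knockout effect was positive for 8 of 10 genes, with a median of 0.64 beside -0.03 for all genes. That median was 0.31 without the first wild-type descending array and 0.99 without the second. Ucp1 (2.61, SE 0.70), Adig (2.00, SE 0.52) and Pck1 (1.33, SE 0.46) had an unadjusted limma p under 0.05 in that direction, as 1.62% of all genes did. The interaction of Ucp1 was 1.74 without the first wild-type descending array. Ucp1, Adig and Pck1 had means of 5.06, 3.89 and 5.28 in wild-type ascending aorta. The median over all genes was 5.04 on both arrays of that group. RMA compresses differences of dim genes, and its part in these interactions was not tested. No gene was called (0%), the limma adjusted p of all 10 being 1.00 to the third digit, so a dependence on the segment was not shown for any of them. For Adipoq the interaction was -0.47 with a 95% interval from -2.07 to 1.13. These comparisons share arrays: the wild-type descending pair enters the descending genotype difference, the wild-type segment difference and the interaction, so their values are not independent of each other. Both wild-type descending arrays were above the other 6 in 7 of the 10 genes (all but Adipoq, Pparg and Lipe) and in 2.80% of all genes.

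The 2 pools of a group differed in several of these genes at once. In wild-type descending aorta the first array was higher in 8 of 10 genes (51.0% of all genes), by a median of 0.74, and in wild-type ascending aorta in 7 of 10 (55.4% of all genes), by a median of 0.55. The first array was higher in 6 of 10 genes in knockout ascending and in 3 of 10 in knockout descending aorta, where all genes stood at 51.7% and 54.2%. The mean of the 10 genes, each centred on its own mean, was 1.59 and 0.88 in wild-type descending, 0.09 and -0.51 in wild-type ascending, -0.25 and -0.16 in knockout descending and -0.72 and -0.91 in knockout ascending aorta. By the median difference the pools lay farthest apart in wild-type descending aorta, the group where the genes were brightest.

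Genes that work with these markers were counted in 6 further lists, 98 of whose 107 entries were measured. None of the 98 passed limma's adjusted threshold in the descending genotype difference. Of 18 genes of brown fat identity and heat production, 1 was lower and 0 higher at an unadjusted p under 0.05, beside 2.32% and 3.63% of all genes, and the median was -0.01. The 1 gene was Cox7a1, another cytochrome c oxidase subunit of muscle and brown fat, with log2 values of 9.40 and 8.88 in wild-type descending against 7.24 and 6.75 in knockout descending aorta (-2.14, SE 0.57). Nrg4, a secreted factor of brown fat, stood at -0.56 (SE 0.26), and Pdk4, a brake on glucose oxidation, at 0.71 (SE 0.34). Ppargc1a, Dio2 and Prdm16, central regulators of brown fat and named after their values were seen, stood at -0.08, -0.21 and 0.19 (SE 0.29 to 0.33). In wild-type descending aorta Ppargc1a had 5.02 and 4.58, Dio2 4.18 and 4.93 and Prdm16 6.31 and 5.85. The medians over all genes on those arrays were 5.02 and 5.08. How far a low signal limits the differences of this list was not tested. Of the 18 genes 10 lay below 0, as did 46.3% of all genes and all 10 marker genes. Both lists were chosen with earlier results of these data known, so their contrast is no test.

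Among 18 genes of lipid uptake, droplets and lipolysis, 3 were lower and 2 higher at an unadjusted p under 0.05 (median -0.04). The shares of all genes at that threshold were 2.32% lower and 3.63% higher. Cd36, a fatty acid transporter, had 9.14 and 8.25 in wild-type descending against 7.29 and 7.14 in knockout descending aorta, a difference of -1.48 (SE 0.34). Cidec, which fuses lipid droplets, had 7.11 and 5.16 against 4.77 and 4.18 (-1.66, SE 0.52). G0s2, an inhibitor of triglyceride lipase named after its values were seen, was the third at -0.85 (SE 0.36). Lipa (0.81) and Mgll (0.62), a lysosomal and a monoacylglycerol lipase, were the 2 higher ones. Of 17 genes of fatty acid and triglyceride synthesis 7 lay below 0 (median 0.04), beside 46.3% of all genes. At the same threshold 2 of them were lower, Mlxipl (-0.75), a transcription factor that responds to glucose, and Thrsp (-0.94). Of 17 genes of fatty acid oxidation 12 lay below 0 (median -0.16). At an unadjusted p under 0.05 only 1 of them was lower, Eci1 (-0.86), an isomerase of unsaturated fatty acids.

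Of 14 adipogenic transcription factors 5 lay below 0 and 9 above it in the descending difference (median 0.32), while 46.3% of all genes lay below 0. At an unadjusted p under 0.05 1 of them was higher, beside 3.63% of all genes. It was Klf15 at 1.42 (SE 0.37), with 7.18 and 6.75 in knockout descending against 5.62 and 5.46 in wild-type descending aorta. Of 14 adipokines and adipocyte receptors 8 lay below 0 and 6 above it (median -0.14). At the same threshold 1 was lower, beside 2.32% of all genes, and 1 was higher. Aqp7, the glycerol channel of adipocytes, had 6.58 and 5.66 in wild-type descending against 4.62 and 4.63 in knockout descending aorta (-1.49, SE 0.32). Npr3, the natriuretic peptide clearance receptor, stood at 1.04 (SE 0.30). Car3, a carbonic anhydrase abundant in fat and slow muscle, stood at -1.71 (SE 0.77) in the descending and -3.46 (SE 0.77) in the ascending aorta, where its values were 10.2 and 8.60 in wild-type and 7.29 and 4.65 in knockout. None of these passed after adjustment, with the smallest limma adjusted p of those named here at 0.283 for Car3 in the ascending aorta.

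In the ascending aorta the 6 lists held 2 genes with a lower value (Car3 and Pnpla3) and 6 with a higher one at an unadjusted limma p under 0.05. The higher ones, named after their values were seen like Pnpla3, were Ebf2 (0.76), Pdk4 (0.88), Pnpla2 (0.89), Lpl (1.22), Lipa (0.92) and Klf5 (0.79). The shares among all genes were 3.60% lower and 5.31% higher.

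**Figure D3:**
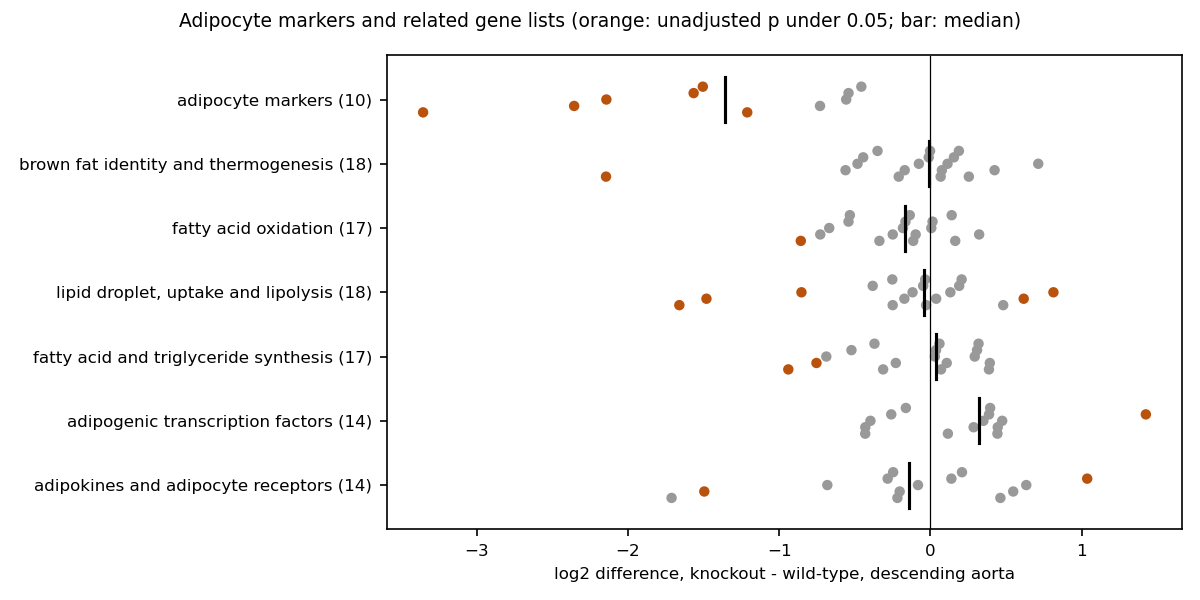
Log2 difference between knockout and wild-type descending aorta (x axis) for each measured gene of the adipocyte markers and 6 related lists (y axis, number of genes in brackets); orange points have an unadjusted limma p under 0.05, black bars are medians and vertical offsets only separate points. The median is -1.36 for the adipocyte markers and between -0.16 and 0.32 for the other lists, with Cox7a1, Cidec, Cd36 and Aqp7 as the unadjusted low points nearest to the markers.

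Genes whose pattern over the 8 arrays was most like the mean of the 10 were looked for among 7329 other named genes that spanned at least 1 on the log2 scale. Pearson's r was highest for Cd36 (0.98), followed by Tnfrsf4 (0.96), Cox7a1 (0.94), Nrep (0.93), Rnaseh1 (0.93) and Eci1 (0.92). These values describe 8 arrays in 4 groups that include the wild-type descending pair, and say nothing of shared control. Each of the 10 genes correlated with the mean of the other 9 at an r between 0.82 (Pparg) and 0.94 (Ucp1). All 10 were listed with earlier results of these data known and had their highest mean in wild-type descending aorta. Their correlations are therefore no test of whether they vary together.

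Several of the 10 genes are made by other cells, so markers of those cells were set beside them. Endothelial markers, which bear on Fabp4 and Pparg, had a median descending difference of -0.11, with 8 of 12 lower, 0 of them at an unadjusted p under 0.05, and 1 higher at that threshold. In the ascending aorta it was -0.73, with 10 of 12 lower, 8 of them at an unadjusted p under 0.05, and 1 higher at that threshold. Among all genes 3.60% were lower and 5.31% higher there at it. Their summed signal, as a log2 value, ranged over 10.9 to 11.3 in wild-type descending, 10.9 to 11.3 in knockout descending, 10.8 to 11.0 in wild-type ascending and 10.2 to 10.3 in knockout ascending aorta. These ranges overlapped between the descending genotypes and lay lower in the knockout than in the wild-type ascending aorta. The part of endothelial RNA in the differences of Fabp4 and Pparg was not tested in either segment.

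Macrophage markers, which also bear on Fabp4 and Pparg, were higher in the knockout descending aorta in 8 of 10 genes with a median of 0.55. At an unadjusted limma p under 0.05 3 of the 10 were higher there, beside 3.63% of all genes. In the ascending aorta all 10 were higher (median 0.97), 7 of them at that threshold, beside 5.31% of all genes. The summed log2 signal of the macrophage markers was 10.5 to 10.6 in wild-type and 10.8 to 11.2 in knockout descending aorta, and 9.81 to 10.4 and 10.9 to 11.3 in the ascending segment. Their ranges lay higher in the knockout in both segments. The part of macrophage RNA in the differences of Fabp4 and Pparg was not tested in either segment.

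Skeletal muscle and heart also make Cox8b and Cox7a1. In the descending aorta cardiomyocyte markers were higher in the knockout in 11 of 13 genes (median 0.49, summed log2 signal 11.97 to 12.05 against 10.19 to 11.19 in wild-type), with Tnnt2 at 1.55, Myl7 at 2.28 and Myh6 at 1.41. Skeletal muscle markers were higher there in 9 of 12 (median 0.51, summed log2 signal 9.86 to 10.2 against 9.34 to 9.69). Cox8b stood at -2.36 (SE 0.52) in that same comparison. In the ascending aorta skeletal muscle markers were lower in the knockout in 12 of 12 genes (median -1.61), with a summed log2 signal of 11.2 to 12.7 in wild-type and 9.54 to 10.6 in knockout. Their mean was 7.09 on the first and 8.32 on the second wild-type ascending array, and Cox8b had 8.995 on the first and 7.31 on the second. The part of skeletal muscle and heart RNA in the differences of Cox8b and Cox7a1 was not tested in either segment.

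Hepatocyte markers, which bear on Pck1, were higher in the knockout descending aorta in 7 of 8 genes (median 0.16), with a summed log2 signal of 8.47 to 8.87 in wild-type and 8.40 to 10.1 in knockout. Their mean log2 value was 5.14 on the first and 6.22 on the second knockout descending array, against 5.16 and 5.52 in wild-type. Only the second knockout array thus lay above the wild-type pair. Adrenal cortex markers, which bear on Lipe, had a summed log2 signal of 6.92 to 7.01 in wild-type and 6.94 to 7.04 in knockout descending aorta and a median difference of 0.05. Smooth muscle markers had medians of 0.20 and 0.37 in the descending and ascending segment. Fibroblast markers had medians of 0.22 and 0.14, and chromaffin and sympathetic markers 0.39 and -0.08. None of the 83 measured genes of these 9 lists was called by limma after adjustment in either segment. The arrays give no value of 0 and no detection call, so whether a marker is absent was not determined.

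**Figure D4:**
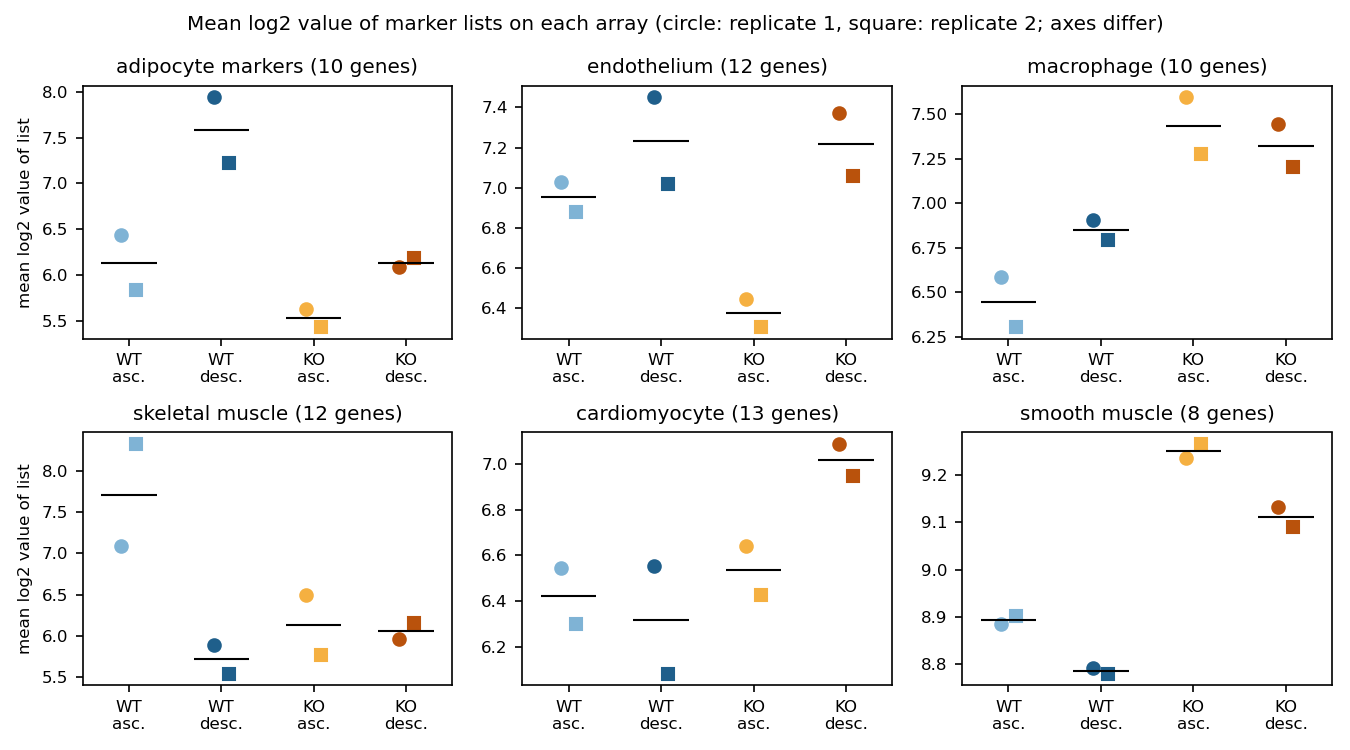
Mean log2 value of the adipocyte markers and of 5 lists of other cell types on each array (circles replicate 1, squares replicate 2, lines group means; the y axes differ). The adipocyte mean is 7.94 and 7.22 in wild-type descending and 6.09 and 6.18 in knockout descending aorta. None of the other 5 panels shows both wild-type descending arrays above both knockout descending arrays. Of the related lists, which are not drawn, brown fat identity and adipokines also show this, and the others do not. The adipocyte markers were chosen with earlier results of these data known, so their contrast with the other panels is no test.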

How the data were processed

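Affymetrix arrays of 8 pooled RNA samples gave 1 log2 value per row and array; the authors deposited these log2 values after RMA in Affymetrix Expression Console, as the submitters' processing notes name them. The version, build and probe set definition are not stated in the sources used here. RMA compresses differences of dim genes. Of 41345 rows the platform annotation named 23521 with 1 symbol, 1814 with several and 16010 not at all. The row with the highest mean was kept per gene, leaving 22180 genes.

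Group means were fitted to all 8 arrays with limma 3.58.1 in R 4.3.3 (4 residual and 5.52 prior degrees of freedom), with Benjamini-Hochberg adjustment over all genes and a threshold of 0.05. The fit was tested on simulated data. Precision is limited by the number of arrays, with a median standard error of 0.30 for a difference between 2 groups. The 10 genes, the lists and the rules were chosen with earlier results of these data known. The text names all 10 genes, up to 4 genes per list with the smallest descending p, and 6 genes of like pattern. Genes with a name of the predicted, Rik, Mir, Snor, Olfr or Vmn kind were left out of the last. Some other genes are named outside these rules, among them Mylk and those said to be named after their values were seen.

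Shared replicate numbers are not said to pair pools; the deviations of same-numbered arrays correlated between -0.08 and 0.29 over the 6 pairs of groups, so no block was used. Alternatives were 2 other scalings, a filter on the dimmest 25%, the mean of a gene's rows, all rows, a replicate block, only the groups compared, a variance trend, a threshold of 0.1, and fits without arrays. Figures used matplotlib 3.10.9 in Python 3.11.15.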

Additional observations from a re-analysis of the deposited data

How the results depend on the processing

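Over the settings tried, none of the 10 genes was called after adjustment in the ascending genotype difference, the knockout segment difference or the interaction. A single gene was called elsewhere in some: 1 in the averaged difference at the threshold of 0.1, and 1 each in the descending, averaged and wild-type segment differences without both wild-type replicate 2 arrays. Leaving out 1 array gave 0 to 1 in the descending and averaged differences.

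The counts at an unadjusted p under 0.05 ran, with 1 array left out, from 5 to 9 in the descending, 0 to 3 in the ascending and 6 to 9 in the averaged difference, and from 5 to 9 and 0 to 5 in the wild-type and knockout segment differences. They were 1 (ascending) and 5 (knockout segment) with only the groups compared. The medians ran from -1.51 to -0.94 in the descending and -1.59 to -0.81 in the wild-type segment difference with 1 array left out, and were negative in all 18 settings. The interaction median ran from 0.31 to 0.99.
With the replicate block the counts were 6, 2, 8, 9, 3 and 3 against 6, 2, 8, 8, 3 and 3 without it, and no adjusted call changed.

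Of the single genes, 0 turned in direction in the wild-type segment difference. With 1 array left out, Pparg ran from -1.33 to 0.22 in the descending, -0.31 to 0.021 in the ascending and -0.74 to 0.038 in the averaged difference. In the ascending difference Pck1 ran from -0.47 to 0.13, Fabp4 from -0.27 to 0.0066 and Adig from -0.61 to 0.32. In the knockout segment difference Pck1 ran from -0.56 to 0.043, Adig from -0.11 to 0.20 and Cidea from -0.53 to 0.064, and Adig was -0.028 after quantile normalization. In the interaction Adipoq ran from -1.23 to 0.30, Plin1 from -0.15 to 0.80, Pparg from -0.36 to 1.19 and Lipe from -0.37 to 0.30, and without both wild-type replicate 2 arrays Cox8b was -0.038 and Lipe 0.31. Why these values moved was not tested beyond the array left out. The fit to only the groups compared gives no averaged difference or interaction, which need all 4 groups. A group left with 1 array is assumed to vary like the others. Ucp1's descending adjusted p ranged from 0.0230 to 1.00 over the settings, so 2 arrays a group do not settle its call.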
